A study of Mus musculus with 32 samples.

Results

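The 8 genes described here encode co-inhibitory molecules of T cells: Pdcd1, Ctla4, Btla, Lag3, Havcr2, Tigit, Cd160 and Cd200. They were found by gene symbol among the 16741 genes of the deposited table, and all 8 passed the filter on low values. The series models acute graft-versus-host disease in mice by transplanting C57Bl6 T cells into Balb/c hosts across a major mismatch of tissue antigens. From spleen and lymph nodes, 3 donor populations were sorted, CD4 and CD8 conventional T cells and regulatory T cells (Treg), and their bulk RNA was sequenced in 31 libraries. Day 0, before transplantation, is represented by 2 libraries of each conventional population. Another 3 libraries per cell type came from untreated syngeneic control recipients, whose strain the labels do not name, and 4 from untreated allogeneic recipients with graft-versus-host disease. The last 4 per cell type came from allogeneic recipients with graft-versus-host disease that also received C57Bl6 Treg at day 0, called Treg-treated here. Treg had 2 libraries from day 0 and 3 recovered from Treg-treated recipients. Cells from after transplantation were taken at day 6 by the sample titles and at day 8 by the series description.

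T cells switch on inhibitory receptors after antigen receptor signalling, and these receptors then damp that signalling through cytoplasmic tails that recruit phosphatases and other adaptors, or by competing for ligands. PD-1 (Pdcd1), CTLA-4 (Ctla4) and BTLA (Btla) belong to the CD28 family, while LAG-3 (Lag3), TIM-3 (Havcr2), TIGIT (Tigit) and CD160 (Cd160) belong to other branches of the immunoglobulin superfamily. CD200 (Cd200) is itself a ligand, whose inhibitory receptor CD200R1 sits on other cells and on activated T cells. Several of these molecules are induced together on alloreactive T cells, and Treg carry CTLA-4 and TIGIT from the outset.

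Upstream windows are printed for Pdcd1, Havcr2, Ctla4 and Tigit, since these genes had large differences between arms, and for Btla, whose group means spanned the narrowest range. Each window is the 250 bases before a transcript start, 5′ to 3′ on the strand of the gene, from RefSeq on GRCm38.p6, the genome version named GRCm38 in the submitters' processing notes. Capitals mark GGAAA, the core recognised by NFAT and other factors, or TGANTCA, the AP-1 element, on either strand (TTTCC is GGAAA on the other strand).
Pdcd1, chr1:94052554-94052803, minus strand: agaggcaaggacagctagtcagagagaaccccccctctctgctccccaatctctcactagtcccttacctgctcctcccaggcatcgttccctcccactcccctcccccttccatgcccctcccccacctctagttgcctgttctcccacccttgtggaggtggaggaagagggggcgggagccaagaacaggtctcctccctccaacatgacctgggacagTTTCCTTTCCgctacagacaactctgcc
Havcr2, chr11:46454681-46454930, plus strand: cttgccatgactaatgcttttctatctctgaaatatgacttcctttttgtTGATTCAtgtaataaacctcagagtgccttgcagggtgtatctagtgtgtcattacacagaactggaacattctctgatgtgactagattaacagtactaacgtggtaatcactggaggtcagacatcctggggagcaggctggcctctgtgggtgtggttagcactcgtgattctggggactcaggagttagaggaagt
Ctla4, chr1:60908775-60909024, plus strand: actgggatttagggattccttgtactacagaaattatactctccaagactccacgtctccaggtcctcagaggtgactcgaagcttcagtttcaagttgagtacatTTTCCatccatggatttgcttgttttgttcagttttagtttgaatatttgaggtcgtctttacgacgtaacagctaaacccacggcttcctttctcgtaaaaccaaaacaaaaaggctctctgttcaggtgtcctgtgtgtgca
Tigit, chr16:43664185-43664434, minus strand: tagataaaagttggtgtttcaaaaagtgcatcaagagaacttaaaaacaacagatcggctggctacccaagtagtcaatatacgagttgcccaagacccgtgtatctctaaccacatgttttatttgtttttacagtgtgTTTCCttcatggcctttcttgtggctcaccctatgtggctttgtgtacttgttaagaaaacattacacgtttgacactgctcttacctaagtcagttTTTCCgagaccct
Btla, chr16:45224087-45224336, plus strand: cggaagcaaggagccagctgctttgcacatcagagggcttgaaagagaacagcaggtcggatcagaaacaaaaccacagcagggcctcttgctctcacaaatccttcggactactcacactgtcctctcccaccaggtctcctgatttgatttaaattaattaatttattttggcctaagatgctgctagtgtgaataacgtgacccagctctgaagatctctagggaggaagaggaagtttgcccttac
Of the printed windows, those of Tigit and Btla precede a transcript start within the gene, so they lie inside the gene positions given below. Entries were found for 7 of the 8 genes. Pdcd1 and Tigit each held 2 copies of GGAAA and Ctla4 held 1, while the Havcr2 window held 1 TGANTCA and no GGAAA. The windows of Btla and Cd200 held neither motif, and of the pair of Cd160 starts in the table only one held GGAAA, 1 time. Over all 32851 windows of this length, 55.6% held GGAAA and 6.75% held TGANTCA, so a GGAAA match is common.

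Values are counts normalised between libraries by the authors, and the read depth is unknown. The mean value per gene ranged from 1227 to 2385 between libraries. Cd4 was at 8722 or more in 12 of the 13 CD4 libraries and at 92.8 or less in the CD8 libraries, where the sum of Cd8a and Cd8b1 was 57637 to 184034. CD4 syngeneic replicate JL019-2 stood apart, with 1659 for Cd4, 1956 for Cd8a, a summed level of 10 myeloid markers of 3611260 (84555 and 78641 in the other CD4 syngeneic libraries) and of 5 erythroid markers of 314239. The tested differences of the 8 genes that use this library are also given without it. In the libraries labelled Treg, 7 of 9 Treg markers were called higher than in CD4 cells at day 0. But Foxp3, the defining gene, was at 198 and 442 in Treg and at 1145 and 978 in CD4 cells at day 0. After transplantation Foxp3 was at 285, 265 and 293 in Treg. That was above the 127 to 178 of CD4 cells from Treg-treated recipients and below the 337 to 579 of CD4 cells from allogeneic recipients. The prefixes JL019 and JL027 are named as experiments in the T-cell receptor tables, and the model holds no term for them except where a block is named. Titles number the libraries but do not say whether each number is 1 animal, so p-values measure the spread between these libraries.

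**Figure D1:**
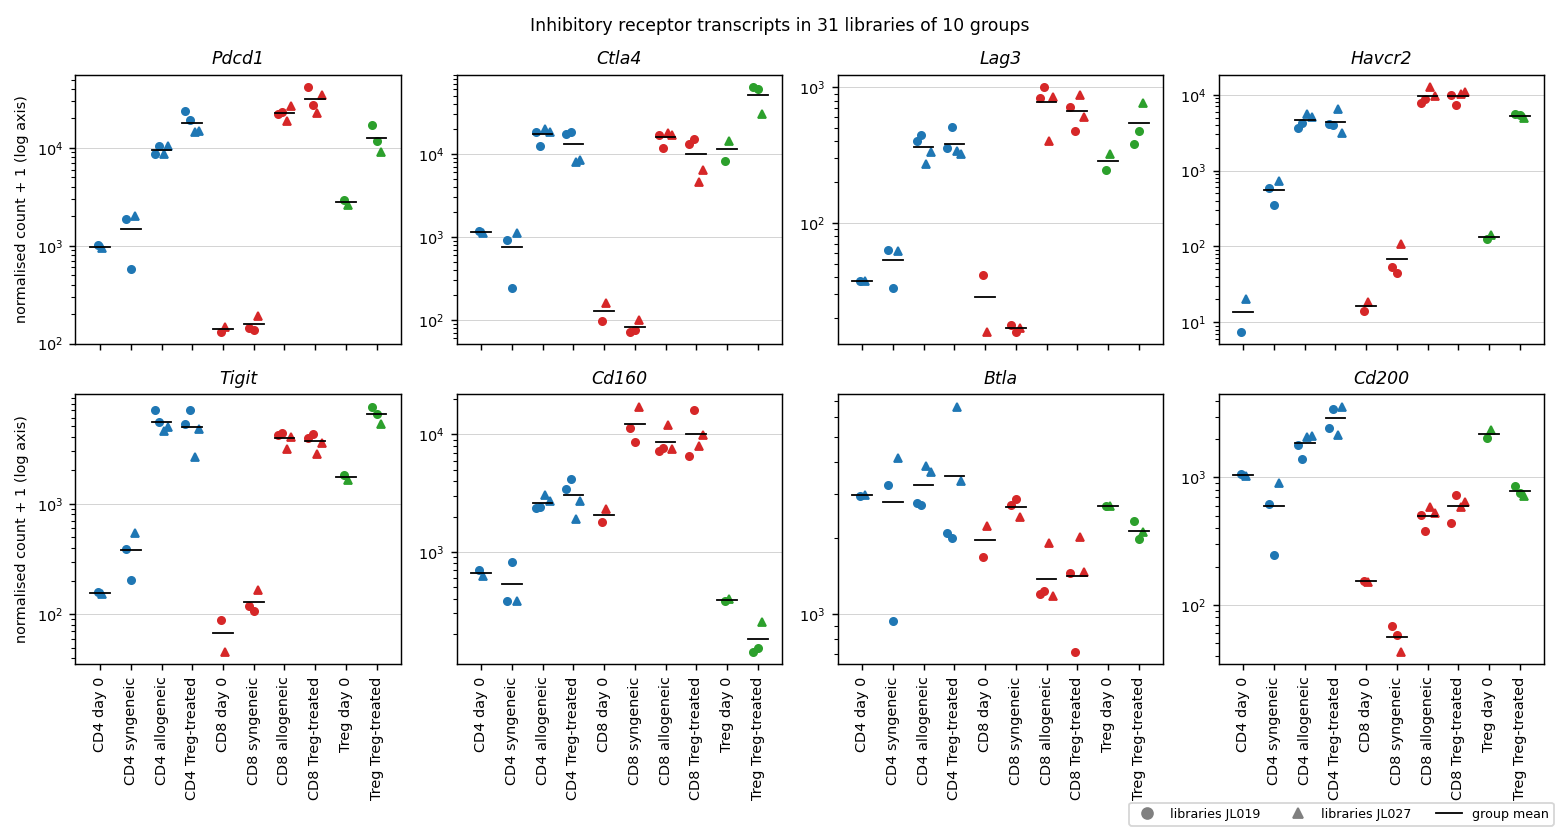
Normalised count plus 1 (log axis, a separate range per gene) of each gene in each of the 31 libraries, with a point per library, circles for prefix JL019, triangles for JL027 and a line at the group mean. Pdcd1, Ctla4, Lag3, Havcr2 and Tigit sit high in all allogeneic and Treg-treated groups, Cd160 sits high in CD8 cells of all 3 arms after transplantation, and Btla spans a narrow range.

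Allogeneic recipients carried far more of most of these transcripts than syngeneic recipients, in both conventional cell types. In CD4 cells 7 of the 8 genes were higher in allogeneic recipients by limma at an adjusted p under 0.05, against 14.6% of all genes called in either direction, and Btla was the exception. CD8 cells had 6 of the 8 higher, against 21.1% of all genes called, with Cd160 and Btla not called. Treg-treated recipients gave the same counts against syngeneic recipients, 7 of 8 in CD4 cells (background 16.7%) and 6 of 8 in CD8 cells (background 18.2%), and these comparisons share their syngeneic libraries with the first ones. The median difference of the 8 genes was 2.84 on the log2 scale in CD4 cells and 5.18 in CD8 cells, while that of all genes was near 0 (0.00 and 0.02). In bulk RNA, a smaller share of cells with a transcript and less transcript per cell cannot be told apart.

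**Figure D2:**
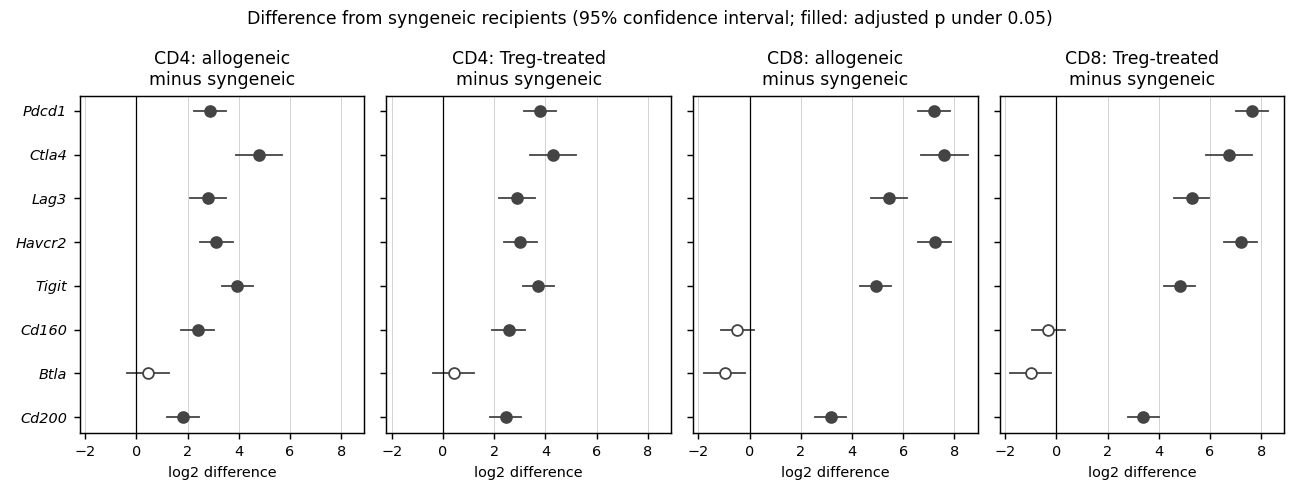
Difference in log2(normalised count + 1) from syngeneic recipients for each gene, as a point with its 95% confidence interval, in CD4 and CD8 cells of allogeneic and Treg-treated recipients; filled points have a limma adjusted p under 0.05. The CD8 differences of Pdcd1, Ctla4 and Havcr2 lie between 6.75 and 7.64 and those of Btla in CD8 cells lie near -1.

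Pdcd1 (ENSMUSG00000026285, chr1:94038305-94052553) encodes PD-1, the receptor for PD-L1 and PD-L2. In CD8 cells it was at 131 and 147 at day 0, at 143, 135 and 190 in syngeneic recipients, at 22468, 23496, 18997 and 26576 in allogeneic recipients and at 42172, 27656, 22478 and 34961 in Treg-treated recipients. In CD4 cells it was at 1015 and 941 at day 0, at 1863, 580 and 2016 in syngeneic recipients, at 8702, 10570, 8619 and 10422 in allogeneic recipients and at 24079, 19154, 14439 and 15040 in Treg-treated recipients. Treg had 2935 and 2616 at day 0 and 17310, 11742 and 9086 after transplantation. Every CD4 and CD8 library from allogeneic or Treg-treated recipients was above every day 0 and syngeneic library. The allogeneic minus syngeneic difference was 7.19 in CD8 cells (95% confidence interval 6.57 to 7.82, limma adjusted p 1.82e-15) and 2.88 in CD4 cells (2.26 to 3.50, adjusted p 1.13e-07). The highest mean of the 10 groups was that of CD8 cells from Treg-treated recipients, 31817 ± 8595 (SD, n = 4), whose range overlapped that of CD8 cells from allogeneic recipients, 22884 ± 3125 (SD, n = 4).

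Ctla4 (ENSMUSG00000026011, chr1:60909025-60915832) encodes CTLA-4, which competes with CD28 for CD80 and CD86 and is a constitutive molecule of Treg. Its highest levels were in Treg recovered after transplantation, at 64681, 61227 and 30287, above the 8262 and 14415 of Treg at day 0 and above every other library. CD4 cells had 1180 and 1106 at day 0, 907, 239 and 1103 in syngeneic recipients, 18623, 12479, 19865 and 18521 in allogeneic recipients and 17334, 18511, 7978 and 8478 in Treg-treated recipients. CD8 cells had 95.2 and 157 at day 0, 71.0, 74.4 and 97.5 in syngeneic recipients, 17152, 11921, 18092 and 16971 in allogeneic recipients and 13334, 15217, 4532 and 6388 in Treg-treated recipients. CD8 cells thus went from the lowest syngeneic level of the 10 groups to a level that overlapped CD4 cells in allogeneic recipients. Its allogeneic minus syngeneic difference was the largest of the 8 genes in both cell types, 7.61 in CD8 (6.71 to 8.51, adjusted p 7.53e-13) and 4.78 in CD4 (3.88 to 5.68, adjusted p 1.03e-08).

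Lag3 (ENSMUSG00000030124, chr6:124904359-124912434) encodes LAG-3, a CD4-like receptor for MHC class II. CD8 cells had 40.0 and 14.8 at day 0, 16.8, 14.8 and 15.9 in syngeneic recipients, 836, 1010, 400 and 855 in allogeneic recipients and 722, 474, 884 and 604 in Treg-treated recipients. CD4 cells had 36.3 and 36.1 at day 0, 62.0, 32.4 and 61.6 in syngeneic recipients, 403, 442, 270 and 334 in allogeneic recipients and 358, 512, 340 and 322 in Treg-treated recipients. Treg already had 246 and 322 at day 0, and 379, 477 and 768 after transplantation. Day 0 and syngeneic libraries of conventional cells lay below all others. The allogeneic minus syngeneic difference was 5.45 in CD8 cells (4.75 to 6.15, adjusted p 3.11e-12) and 2.81 in CD4 cells (2.11 to 3.51, adjusted p 1.10e-06).

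Havcr2 (ENSMUSG00000020399, chr11:46454931-46481255) encodes TIM-3, a receptor for galectin-9 and CEACAM1 that is also made by myeloid cells. At day 0 it was at 6.51 and 19.1 in CD4 cells, 13.2 and 17.3 in CD8 cells and 125 and 141 in Treg. Syngeneic recipients had 582, 353 and 721 in CD4 cells and 51.7, 43.5 and 108 in CD8 cells. Allogeneic recipients had 3674, 4280, 5617 and 5043 in CD4 cells and 7813, 8809, 12726 and 9538 in CD8 cells, and Treg-treated recipients had 4170, 3934, 6468 and 3155 in CD4 cells and 9945, 7248, 10076 and 10760 in CD8 cells. Treg after transplantation had 5540, 5439 and 4877, below all CD8 libraries from allogeneic and Treg-treated recipients and within the range of the CD4 ones. The allogeneic minus syngeneic difference was 7.23 in CD8 cells (6.59 to 7.88, adjusted p 2.31e-15) and 3.12 in CD4 cells (2.47 to 3.76, adjusted p 5.71e-08). The summed level of the 10 myeloid markers was 78641 to 3611260 in CD4 cells of syngeneic and 5768 to 11418 in those of allogeneic recipients, and in CD8 cells 38008 to 62184 and 8150 to 12324. Its part in the Havcr2 differences was not tested.

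Tigit (ENSMUSG00000071552, chr16:43626137-43665125) encodes a receptor for CD155 that opposes the activating receptor CD226. Treg had 1814 and 1641 at day 0 and 7535, 6496 and 5291 after transplantation. CD4 cells had 160 and 151 at day 0, 392, 205 and 539 in syngeneic recipients, 6965, 5441, 4530 and 4937 in allogeneic recipients and 5276, 6987, 2662 and 4733 in Treg-treated recipients. CD8 cells had 87.4 and 45.1 at day 0, 118, 105 and 165 in syngeneic recipients, 4193, 4358, 3092 and 4000 in allogeneic recipients and 3929, 4307, 2845 and 3533 in Treg-treated recipients. The 5 groups from allogeneic hosts, Treg included, formed a chain of overlapping ranges above all others. The allogeneic minus syngeneic difference was 4.92 in CD8 cells (4.31 to 5.53, adjusted p 1.59e-12) and 3.94 in CD4 cells (3.33 to 4.54, adjusted p 2.35e-10).

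Cd160 (ENSMUSG00000038304, chr3:96798763-96829351) encodes a glycosylphosphatidylinositol-anchored receptor for HVEM found on CD8 T cells and natural killer cells. CD8 cells had 1785 and 2338 at day 0, 11244, 8620 and 17217 in syngeneic recipients, 7260, 7612, 12127 and 7515 in allogeneic recipients and 6594, 16279, 7896 and 9873 in Treg-treated recipients. All CD8 libraries after transplantation were above those of day 0, whichever the host, and the 3 arms overlapped. CD4 cells had 696 and 627 at day 0, 384, 818 and 381 in syngeneic recipients, 2363, 2388, 3053 and 2717 in allogeneic recipients and 3435, 4170, 1912 and 2718 in Treg-treated recipients. Treg had 384 and 398 at day 0, within the CD4 syngeneic range, and 141, 152 and 254 after transplantation, below all other libraries. In CD4 cells the allogeneic minus syngeneic difference was 2.41 (1.76 to 3.05, adjusted p 3.59e-06), and in CD8 cells it was -0.49 (-1.14 to 0.15, adjusted p 0.293), which array weights called lower (-0.54, adjusted p 0.0138). A list of 6 natural killer markers, among them Eomes, which CD8 T cells also express, summed to 1577 to 1887 in CD8 cells at day 0, 5894 to 6160 in syngeneic, 2300 to 2702 in allogeneic and 2050 to 2668 in Treg-treated recipients, and its part in the Cd160 level was not tested.

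Btla (ENSMUSG00000052013, chr16:45223705-45252895) encodes another HVEM receptor, which resting T and B cells already carry. CD4 cells had 2939 and 2961 at day 0, 3254, 938 and 4148 in syngeneic recipients, 2748, 2696, 3841 and 3636 in allogeneic recipients and 2092, 2011, 6615 and 3367 in Treg-treated recipients. CD8 cells had 1691 and 2230 at day 0, 2715, 2858 and 2429 in syngeneic recipients, 1198, 1235, 1907 and 1186 in allogeneic recipients and 1452, 712, 2013 and 1476 in Treg-treated recipients. Treg had 2691 and 2673 at day 0 and 2329, 1989 and 2110 after transplantation. The 10 group means lay between 1382 and 3521, the narrowest span of the 8 genes in ratio. In CD8 cells all allogeneic and Treg-treated libraries were below all syngeneic ones, with differences of -0.98 (-1.78 to -0.17, adjusted p 0.0782) and -1.01 (-1.81 to -0.20, adjusted p 0.0781) that were not called. With the label prefix as a block in the model, both were called, at -1.06 (adjusted p 0.0309) and -1.09 (adjusted p 0.0287). Array weights also called both, at -1.13 (adjusted p 1.40e-05) and -0.77 (adjusted p 0.00917), and a fit to only the groups compared called the allogeneic one (adjusted p 0.00963) but not the Treg-treated one (adjusted p 0.0914). Without Treg-treated replicate JL027-1 the latter was called (-1.21, adjusted p 0.0444). B cell markers (6 of 7 listed were in the table) summed to 19430 to 26687 in syngeneic, 8997 to 11340 in allogeneic and 10710 to 14394 in Treg-treated CD8 libraries, and their part in the Btla level was not tested. In CD4 cells the allogeneic minus syngeneic difference of Btla was 0.45 (-0.35 to 1.26, adjusted p 0.522), and -0.20 (adjusted p 0.847) without the library that stood apart.

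Cd200 (ENSMUSG00000022661, chr16:45382111-45409060) encodes the ligand of CD200R1. CD4 cells had 1071 and 1019 at day 0, 623, 245 and 906 in syngeneic recipients, 1797, 1404, 2086 and 2123 in allogeneic recipients and 2434, 3459, 2164 and 3581 in Treg-treated recipients. CD8 cells had 154 and 151 at day 0, 67.1, 57.2 and 42.2 in syngeneic recipients, 510, 380, 589 and 530 in allogeneic recipients and 440, 731, 581 and 636 in Treg-treated recipients. Treg had 2050 and 2356 at day 0 and 859, 759 and 720 after transplantation. Syngeneic libraries were below day 0 libraries in both conventional cell types, and allogeneic libraries were above them. The allogeneic minus syngeneic difference was 3.16 in CD8 cells (2.55 to 3.77, adjusted p 4.98e-09) and 1.82 in CD4 cells (1.21 to 2.43, adjusted p 7.00e-05).

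Leaving out the CD4 syngeneic library that stood apart kept the same 7 genes called in CD4 cells of allogeneic recipients. Its values were the lowest of the 3 CD4 syngeneic libraries for 7 genes and the highest for Cd160. Without it the allogeneic minus syngeneic differences were 2.30 for Pdcd1, 4.09 for Ctla4, 2.51 for Lag3, 2.82 for Havcr2, 3.55 for Tigit, 2.77 for Cd160 and 1.28 for Cd200, with the highest adjusted p at 0.000734, for Cd200. The Treg-treated minus syngeneic differences in CD4 cells were 3.78 for Pdcd1, 4.29 for Ctla4, 2.89 for Lag3, 3.01 for Havcr2, 3.72 for Tigit, 2.57 for Cd160, 2.46 for Cd200 and 0.42 for Btla, the last with an adjusted p of 0.498. Without the library they were 3.20, 3.60, 2.59, 2.72, 3.33, 2.94, 1.92 and -0.24 in the same order, and the same 7 genes were called. In CD8 cells they were 7.64 for Pdcd1, 6.75 for Ctla4, 5.28 for Lag3, 7.21 for Havcr2, 4.82 for Tigit, -0.31 for Cd160 (not called, adjusted p 0.589), 3.40 for Cd200 and -1.01 for Btla. Within prefix JL027 alone a single syngeneic library stands for its group, so only sizes are given. There the allogeneic minus syngeneic differences in CD4 cells were 2.27 for Lag3 and 1.21 for Cd200. The Treg-treated minus syngeneic ones were 2.41 for Lag3 and 1.62 for Cd200.

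CD8 cells differed from CD4 cells in how far the genes moved. The allogeneic minus syngeneic difference was larger in CD8 than in CD4 cells for 4 of the 8 genes and smaller for Cd160, against 4.65% of all genes called for this interaction. The excess in CD8 was 4.32 for Pdcd1 (3.44 to 5.20, adjusted p 3.58e-07), 4.12 for Havcr2 (3.21 to 5.03, adjusted p 1.15e-06), 2.64 for Lag3 (1.65 to 3.62, adjusted p 0.00105) and 2.83 for Ctla4 (1.55 to 4.10, adjusted p 0.00599). For Cd160 it was -2.90 (-3.81 to -1.99, adjusted p 0.000138), from a difference of 2.41 in CD4 cells and -0.49 in CD8 cells. Tigit (0.98, 0.13 to 1.84, adjusted p 0.213), Btla (-1.43, -2.57 to -0.29, adjusted p 0.162) and Cd200 (1.34, 0.48 to 2.20, adjusted p 0.0647) were not called. Without the CD4 library that stood apart, the 5 called differences were 4.90 for Pdcd1, 4.41 for Havcr2, 2.94 for Lag3, 3.51 for Ctla4 and -3.26 for Cd160, all called again. In that fit Btla was at -0.77 (adjusted p 0.492), Tigit (1.37, adjusted p 0.0465) and Cd200 (1.88, adjusted p 0.000653) were called too, and Cd200 was also called with the recipient as a block (1.34, adjusted p 0.0351). Array weights called Tigit (1.48, adjusted p 0.000144), Cd200 (1.46, adjusted p 0.000286) and Btla (-1.03, adjusted p 0.0138). In each of the 3 syngeneic recipients Pdcd1 was lower in CD8 than in CD4 cells, at 143, 135 and 190 against 1863, 580 and 2016.

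Within allogeneic recipients CD8 cells carried more Pdcd1, Havcr2, Lag3 and Cd160 than CD4 cells, and less Btla and Cd200. These 6 of 8 genes were called, against 6.15% of all genes. The CD8 minus CD4 difference was 1.25 for Pdcd1 (0.68 to 1.83, adjusted p 0.00525), 1.06 for Havcr2 (0.46 to 1.65, adjusted p 0.0248), 1.04 for Lag3 (0.39 to 1.69, adjusted p 0.0464) and 1.69 for Cd160 (1.09 to 2.28, adjusted p 0.000382). It was -1.24 for Btla (-1.98 to -0.49, adjusted p 0.0382) and -1.88 for Cd200 (-2.44 to -1.32, adjusted p 3.93e-05). All 4 recipient labels showed each of these 6 directions, with Pdcd1 higher by 1.14 to 1.37 and Cd200 lower by 1.82 to 2.00 within a recipient. Ctla4 was nearly equal within each recipient, with differences of -0.13 to -0.07, and the test gave -0.11 (-0.95 to 0.72, adjusted p 0.930). Tigit was lower in CD8 in all 4 recipients but not called (-0.48, -1.04 to 0.09, adjusted p 0.398). In the 4 Treg-treated recipients Pdcd1, Havcr2 and Cd160 were again higher in every CD8 library than in the CD4 library of its recipient, and Ctla4, Btla and Cd200 lower. When libraries were left out in turn, Havcr2 was called in 4 of 8 fits (0.92 to 1.15), Lag3 in 1 of 8 (0.89 to 1.33) and Btla in 1 of 8 (-1.40 to -1.15). With quantile normalisation Havcr2 was not called (0.94, adjusted p 0.0860), and with libraries scaled to an equal mean Havcr2 (0.93, adjusted p 0.0956), Lag3 (0.91, adjusted p 0.171) and Btla (-1.36, adjusted p 0.0695) were not called.

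**Figure D3:**
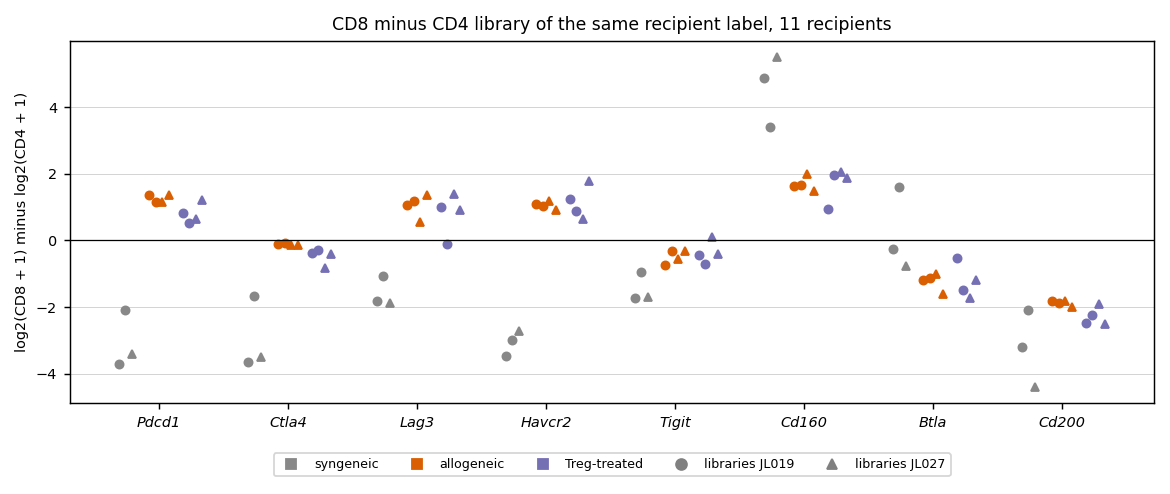
CD8 minus CD4 difference in log2(normalised count + 1) within each of 11 recipient labels, by arm (colours) and prefix (circles JL019, triangles JL027). Pdcd1, Havcr2 and Lag3 are below 0 in all 3 syngeneic recipients and above 0 in all 4 allogeneic recipients, Cd160 is above 0 in all 11, and Cd200 is below 0 in all 11.

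Few of these transcripts passed the test between Treg-treated and untreated allogeneic recipients. In CD4 cells Pdcd1 was the only gene of the 8 called, while 22.2% of all genes were called in this comparison, so nothing about the 8 is read from this count. The number of all genes called, 3710, was 570 with the library mean as a covariate. Pdcd1 was higher in Treg-treated recipients by 0.90 (0.32 to 1.48, adjusted p 0.0258), and all 4 treated libraries (14439 to 24079) were above all 4 untreated ones (8619 to 10570). This call was lost in 6 of 8 fits that left out a library (0.75 with adjusted p 0.0978 without treated replicate JL019-1, the lowest), within either prefix (1.16 with adjusted p 0.116 in JL019, 0.64 with adjusted p 0.679 in JL027), with quantile normalisation (0.55, adjusted p 0.166) and with libraries scaled to an equal mean (0.67, adjusted p 0.123), a scaling that moved the median of all genes from 0.00 to -0.22. Cd200 was also higher in all 4 treated than in all 4 untreated CD4 libraries, by 0.64 (0.08 to 1.20, adjusted p 0.0908), and was not called, but it was with array weights (0.68, adjusted p 0.00287) and without treated replicate JL027-1 (0.77, adjusted p 0.0428). The remaining 6 genes had differences from -0.49 for Ctla4 (-1.33 to 0.34, adjusted p 0.401) to 0.17 for Cd160 (-0.43 to 0.76, adjusted p 0.724).

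Marker sums of other cell states and types also differed between Treg-treated and allogeneic CD4 libraries. The summed level of 8 follicular helper T markers, cells that carry much PD-1, was 5189 to 8606 in Treg-treated and 2406 to 4130 in allogeneic CD4 libraries, and 2 of the 8 were called, Sostdc1 (3.40, adjusted p 0.00179) and Il4 (2.44, adjusted p 0.00241). The myeloid sum was 23917 to 87582 in Treg-treated and 5768 to 11418 in allogeneic CD4 libraries, with 2 of 10 markers called higher and 1 lower. B cell markers summed to 14350 to 17547 and 9412 to 12844, with 1 of 6 called higher. Cd79a among them overlapped, at 9.86 to 47.0 and 9.69 to 25.7. The 9 Treg markers summed to 31031 to 71229 and 30196 to 33500, ranges that overlap, with 1 of 9 called higher (Tnfrsf18). Foxp3, the defining gene of that list, was lower in every Treg-treated CD4 library (127 to 178) than in every allogeneic one (337 to 579). The 5 erythroid markers summed to 3406 to 37375 and 294 to 6188. With 22.2% of all genes called in this comparison, the called shares of the follicular helper, myeloid, B cell and Treg lists are not read as particular to them. The part of each sum in the Pdcd1 difference was not tested.

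In CD8 cells none of the 8 genes was called between Treg-treated and allogeneic recipients by limma, against 0.0657% of all genes, while 1851 genes had an unadjusted p under 0.05. Pdcd1 differed by 0.45 (-0.13 to 1.02, adjusted p 0.536), Ctla4 by -0.85 (-1.69 to -0.02, adjusted p 0.444) and Cd200 by 0.24 (-0.32 to 0.80, adjusted p 0.719), and the other 5 genes by -0.17 to 0.18. The CD8 minus CD4 difference of the Treg effects was called for none of the 8 genes, against 0.00597% of all genes, and lay between -0.45 for Pdcd1 (-1.27 to 0.36, adjusted p 0.898) and 0.11 for Tigit (-0.68 to 0.91, adjusted p 0.959).

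The Ctla4 level of Treg-treated recipients split by label prefix in both cell types. In JL019 the 2 treated CD4 libraries (17334 and 18511) lay within the untreated range, whereas in JL027 they (7978 and 8478) lay below it. CD8 cells showed the same split, with 13334 and 15217 in JL019 and 4532 and 6388 in JL027 against untreated values of 11921 to 18092. The Treg-treated minus allogeneic difference was 0.23 in JL019 and -1.22 in JL027 for CD4 cells, and -0.01 and -1.70 for CD8 cells. A test of that difference between prefixes, added after the values were seen, called none of the 8 genes in CD4 cells (0% of all genes called, 531 with an unadjusted p under 0.05) or CD8 cells (0% called, 445 with an unadjusted p under 0.05). For Ctla4 its adjusted p was 0.811 in CD4 and 0.931 in CD8 cells.

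**Figure D4:**
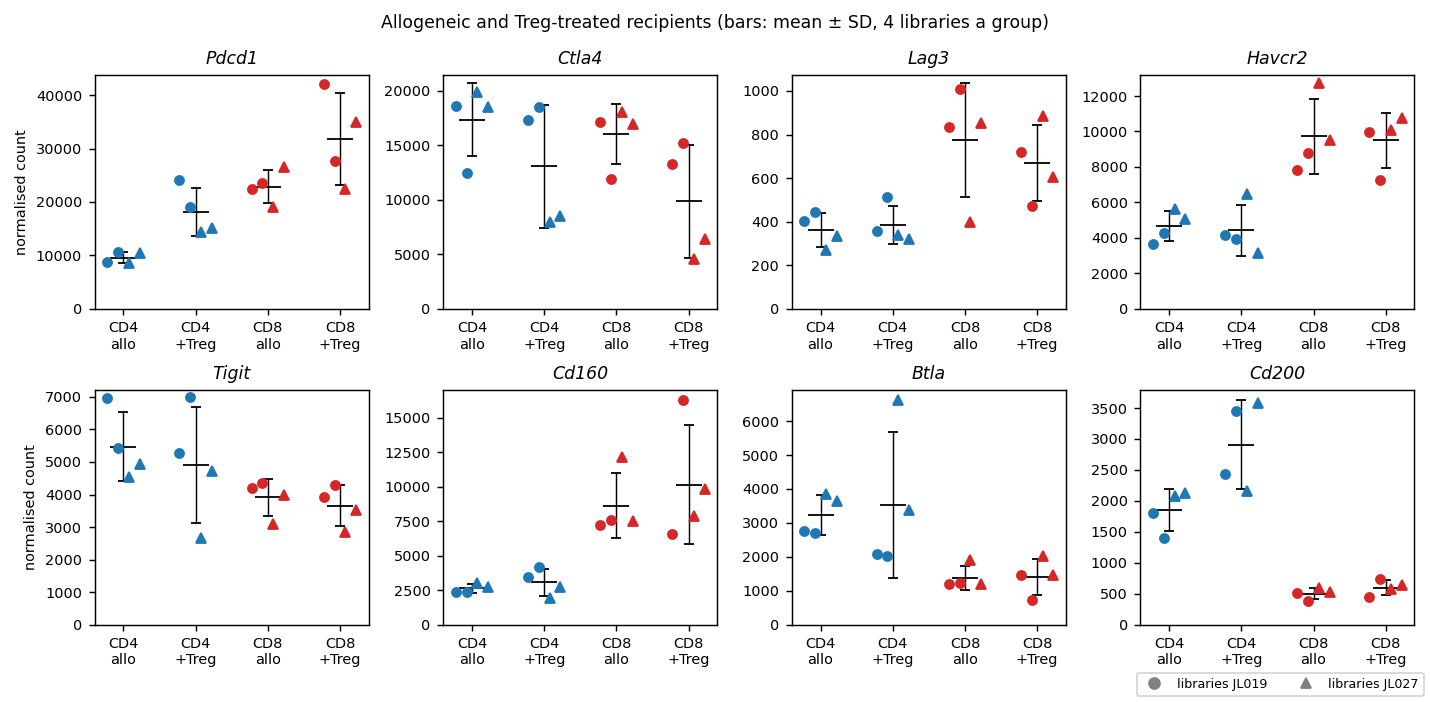
Normalised count (linear axes from 0) of each gene in the 4 allogeneic and 4 Treg-treated libraries of CD4 and CD8 cells, with bars for the mean ± SD, circles for prefix JL019 and triangles for JL027. Pdcd1 and Cd200 in CD4 cells do not overlap between the arms, and the JL027 points of Ctla4 in Treg-treated recipients lie between 4532 and 8478, below the 11921 to 19865 of the allogeneic points.

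Libraries labelled Treg already carried 5 of the 8 transcripts at day 0 above the CD4 level, against 3.89% of all genes called. Tigit was higher than in CD4 cells by 3.47 (2.67 to 4.26, adjusted p 1.47e-06), Havcr2 by 3.45 (2.61 to 4.29, adjusted p 3.85e-06), Ctla4 by 3.25 (2.08 to 4.43, adjusted p 0.000734), Lag3 by 2.92 (2.01 to 3.84, adjusted p 0.000138) and Pdcd1 by 1.50 (0.69 to 2.32, adjusted p 0.0272). The Havcr2 difference was 2.74 without CD4 replicate JL019 and 4.16 without CD4 replicate JL027, and was called in both. The myeloid sum was 2703 and 3510 in Treg and 868 and 1821 in CD4 cells at day 0, and its part in the Havcr2 difference was not tested. The Pdcd1 call was lost when any 1 of the 4 libraries was left out, which leaves 1 library in a group, while its difference was 1.42 to 1.59. Cd200 (1.07, 0.28 to 1.87, adjusted p 0.140), Cd160 (-0.76, -1.60 to 0.09, adjusted p 0.406) and Btla (-0.14, -1.19 to 0.92, adjusted p 0.923) were not called. Array weights called Cd200 (adjusted p 0.00234) and Cd160 (adjusted p 0.0301), as did a fit to only the groups compared (adjusted p 0.00344 and 0.0342), each at the same difference.

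In Treg recovered from recipients 6 of the 8 genes differed from day 0, against 13.3% of all genes called. Havcr2 rose by 5.30 (4.53 to 6.07, adjusted p 1.63e-10), Ctla4 by 2.18 (1.10 to 3.25, adjusted p 0.00487, but 1.77 with adjusted p 0.125 without day 0 replicate JL019), Pdcd1 by 2.15 (1.40 to 2.89, adjusted p 0.000110) and Tigit by 1.88 (1.16 to 2.61, adjusted p 0.000385). Cd200 fell, with a difference of -1.50 (-2.22 to -0.77, adjusted p 0.00395, and 0.0597 without day 0 replicate JL027), as did Cd160, with -1.15 (-1.92 to -0.38, adjusted p 0.0407, lost without 4 of the 5 libraries in turn). Lag3 (0.88, 0.04 to 1.71, adjusted p 0.175) and Btla (-0.33, -1.29 to 0.64, adjusted p 0.732) were not called, though array weights called Lag3 higher (0.87, adjusted p 0.0368).

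Compared with CD4 cells of Treg-treated recipients, recovered Treg differed in 3 of the 8 genes, while 30.0% of all genes were called and the median of all genes was 0.14. Ctla4 was higher by 2.02 (1.12 to 2.92, adjusted p 0.00138), whereas Cd160 differed by -4.06 (-4.70 to -3.41, adjusted p 4.53e-10) and Cd200 by -1.87 (-2.48 to -1.26, adjusted p 5.34e-05). For Cd200, Treg had stood above CD4 cells at day 0, with 2203 ± 216 against 1045 ± 36.5 (SD, n = 2 each), and after transplantation they stood below, with 779 ± 71.5 (SD, n = 3) against 2909 ± 715 (SD, n = 4). Pdcd1 (-0.54, -1.16 to 0.09, adjusted p 0.182), Havcr2 (0.30), Lag3 (0.46), Tigit (0.46) and Btla (-0.54) were not called, with adjusted p from 0.182 to 0.479. Array weights called Pdcd1 lower (-0.65, adjusted p 0.00536).

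**Figure D5:**
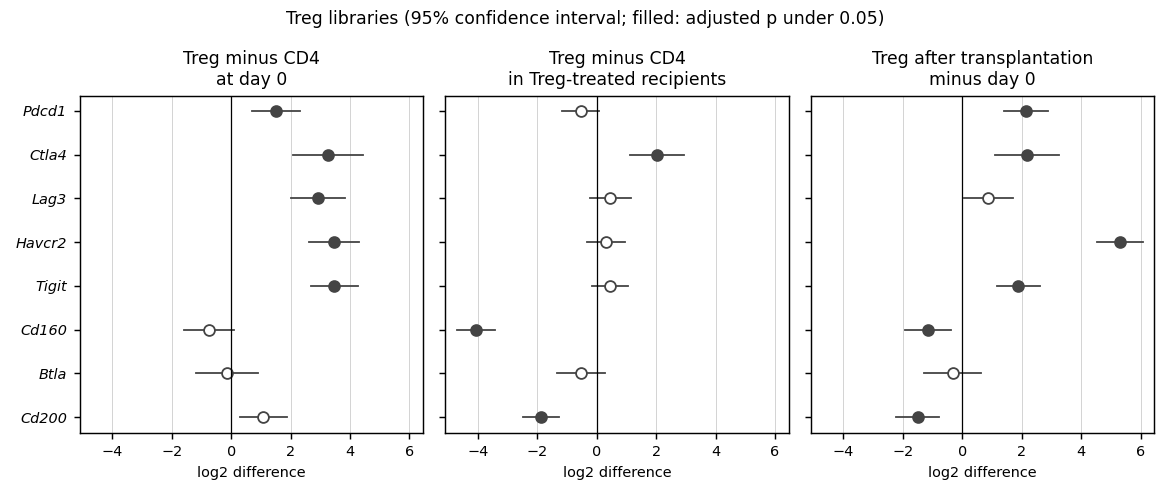
Difference in log2(normalised count + 1) for each gene, as a point with its 95% confidence interval, between Treg and CD4 cells at day 0, between Treg and CD4 cells of Treg-treated recipients, and between Treg after and before transplantation; filled points have a limma adjusted p under 0.05. Cd200 lies at 1.07 in the first comparison and at -1.87 and -1.50 in the others, and Cd160 reaches -4.06.

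In cells from syngeneic recipients, Havcr2 and Tigit were above day 0 in both conventional populations. In CD4 cells 2 of the 8 were called against day 0 (background 13.0%), Havcr2, higher by 5.43 (4.66 to 6.20, adjusted p 2.21e-11), and Tigit, higher by 1.18 (0.45 to 1.90, adjusted p 0.0260). The Havcr2 difference was 4.72 without day 0 replicate JL019 and 6.14 without day 0 replicate JL027. Without the library that stood apart, Havcr2 was higher by 5.72, Tigit by 1.56 (adjusted p 0.00259) and Pdcd1 by 0.99 (adjusted p 0.0287), the last of which was not called with it (0.41, -0.34 to 1.15, adjusted p 0.503). The myeloid sum was 868 and 1821 at day 0 and 78641 or more in syngeneic recipients, and all 10 markers were called higher. Its part in the Havcr2 difference was not tested. Tigit was not called without 4 of the 5 libraries in turn (0.87 at the lowest) or with libraries scaled to an equal mean (0.85, adjusted p 0.126) or in a fit to only the groups compared (adjusted p 0.320). Cd200 lay below day 0 in all 3 syngeneic libraries and was not called (-1.01, -1.74 to -0.29, adjusted p 0.0572), and the value depended on the libraries used. Without the library that stood apart it was -0.48 (adjusted p 0.416), and within prefix JL027 it was -0.17 (adjusted p 0.967). It was called with array weights (-0.57, adjusted p 0.0463), as were Pdcd1 (0.92, adjusted p 0.00165) and Cd160 (-0.75, adjusted p 0.00872). Other fits that kept that library called Cd200 with an equal mean (-1.34, adjusted p 0.0246), with quantile normalisation (-1.21, adjusted p 0.0280) and without replicate JL027 (-1.42, adjusted p 0.00481) or JL019-1 (-1.15, adjusted p 0.0448). Lag3 (0.45, -0.38 to 1.29, adjusted p 0.508), Ctla4 (-0.88, -1.95 to 0.20, adjusted p 0.292), Cd160 (-0.42, -1.19 to 0.35, adjusted p 0.503) and Btla (-0.34, -1.30 to 0.62, adjusted p 0.675) were not called. Without that library they were at 0.76, -0.19, -0.79 and 0.32, again not called, with adjusted p from 0.257 to 0.887.

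In CD8 cells of syngeneic recipients 4 of the 8 genes differed from day 0, against 24.2% of all genes called. Cd160 was higher by 2.54 (1.77 to 3.31, adjusted p 2.94e-05), Havcr2 by 1.98 (1.21 to 2.75, adjusted p 0.000527) and Tigit by 1.00 (0.28 to 1.73, adjusted p 0.0394), while Cd200 differed by -1.47 (-2.19 to -0.74, adjusted p 0.00437, and 0.0566 without day 0 replicate JL019, or -0.97 with adjusted p 0.0723 with quantile normalisation). Pdcd1 (0.15, -0.59 to 0.89, adjusted p 0.782), Ctla4 (-0.60, -1.68 to 0.47, adjusted p 0.405) and Lag3 (-0.60, -1.43 to 0.24, adjusted p 0.278, but -1.29 with adjusted p 0.0495 without day 0 replicate JL027) were not called, and all 3 were far below their allogeneic levels. The myeloid sum was 3815 and 5297 in CD8 cells at day 0 and 38008 to 62184 in syngeneic recipients, with 2 of 10 markers called higher, and the natural killer sum was 1577 to 1887 and 5894 to 6160. Their part in the Havcr2 and Cd160 differences was not tested. Btla was not called (0.45, -0.51 to 1.42, adjusted p 0.489). The Tigit difference was 0.53 to 1.47 in the 5 fits that left out a library, and 3 of these lost the call. The call was also lost in a fit to only the groups compared (adjusted p 0.139) and with libraries scaled to an equal mean (0.57, adjusted p 0.250), which moved the median of all genes from -0.10 to -0.53.

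Most activating counterparts were also higher in allogeneic recipients. Of 8 such receptors and ligands, 7 were called higher in CD4 cells of allogeneic than of syngeneic recipients (median of the list 1.62, against 14.6% of all genes called), led by the co-stimulator Icos (3.23, adjusted p 5.34e-08), Tnfrsf4, which encodes OX40 (2.87, adjusted p 1.19e-06), and Tnfrsf9, which encodes 4-1BB (2.27, adjusted p 1.19e-06). Without the CD4 syngeneic library that stood apart 7 were again called, with Icos at 2.72, Tnfrsf4 at 2.38 and Tnfrsf9 at 1.74. In CD8 cells 5 were higher and 1 lower (median 0.92, against 21.1% of all genes called), with Tnfrsf4 at 4929 against 51.8 (6.60, adjusted p 1.45e-13), Tnfrsf9 at 3.02 and Icos at 2.97. Treg-treated CD4 cells had more Tnfrsf4 (1.15, adjusted p 0.0181) and Tnfrsf18, which encodes GITR (1.06, adjusted p 0.0141), than allogeneic CD4 cells. Recovered Treg had far more Tnfrsf9 than at day 0, 57832 against 6529 (3.15, adjusted p 1.09e-07).

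Ligands and partner receptors moved in both directions. Of 15 measured, 5 were higher and 2 lower in CD4 cells of allogeneic against syngeneic recipients (median 0.44), and 5 were higher and 4 lower in CD8 cells (median 0.56), where 14.6% and 21.1% of all genes were called. Cd200r1, the receptor for CD200, was at 257 in CD8 cells of allogeneic recipients and 34.3 in syngeneic ones (2.85, adjusted p 1.33e-10). It was also higher in Treg-treated than in allogeneic recipients, by 1.32 in CD8 cells (adjusted p 0.00292) and by 0.99 in CD4 cells (adjusted p 0.00666), and was 1 of 11 genes called in the CD8 comparison. Pdcd1lg2, which encodes PD-L2, was higher in Treg-treated than in allogeneic CD4 cells by 1.37 (adjusted p 0.00992), at 902 against 332. The myeloid sum was 23917 to 87582 and 5768 to 11418 in these libraries, and its part in the Pdcd1lg2 difference was not tested. Tnfrsf14, which encodes the HVEM bound by BTLA and CD160, was lower in allogeneic than in syngeneic CD4 cells (-1.10, adjusted p 0.00252, and -0.75 with adjusted p 0.0422 without the library that stood apart, where 8 of the 15 genes were called) and higher in Treg-treated than in allogeneic CD4 cells (0.90, adjusted p 0.0141). Recovered Treg had more Cd274, which encodes PD-L1, than CD4 cells of the same arm, 4270 against 905 (2.28, adjusted p 7.16e-05).

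Other inhibitory receptors, none of them among the 8 genes, were split between higher and lower. Of 12 measured (14 were listed), 4 were higher and 2 lower in CD4 cells of allogeneic against syngeneic recipients (median 0.13, 14.6% of all genes called), and 5 were higher and 3 lower in CD8 cells (median 0.29, 21.1% of all genes called). Klrc1, which encodes NKG2A, was higher in CD4 cells by 4.65 (adjusted p 1.53e-12, and 4.94 without the library that stood apart, where 4 of the 12 were called), at 8782 against 369, and in CD8 cells by 1.45 (adjusted p 0.000191). Klrg1 was at 2305 in CD8 cells of allogeneic recipients and 39.6 in syngeneic ones (5.99, adjusted p 4.72e-12), and at 16817 in recovered Treg against 1583 at day 0 (3.38, adjusted p 5.52e-06). Only Lair1 of this list was called between Treg-treated and allogeneic CD4 cells (-0.73, adjusted p 0.0190).

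Transcription factors known for binding at these genes or for exhausted and effector states were split. Of 16 measured, 4 were higher and 2 lower in CD4 cells of allogeneic against syngeneic recipients, and 6 higher and 4 lower in CD8 cells, against 14.6% and 21.1% of all genes called. Prdm1, which encodes BLIMP-1, was higher by 2.91 in CD4 (adjusted p 1.43e-08, and 2.51 without the library that stood apart, where 7 of the 16 were called) and by 4.48 in CD8 cells (adjusted p 1.78e-12). Id3, which restrains effector differentiation, was at 101 in CD8 cells of allogeneic recipients and 3783 in syngeneic ones (-5.19, adjusted p 8.47e-13), and Eomes differed by -2.17 (adjusted p 4.78e-07). Treg-treated recipients had more Id3 than allogeneic ones, by 1.89 in CD4 cells (adjusted p 0.000681) and 2.11 in CD8 cells (adjusted p 0.000361), and CD4 cells had less Prdm1 (-1.37, adjusted p 0.00348). Among 10 signalling adaptors Sh2d2a (1.69, adjusted p 2.47e-05) was called higher in CD4 cells of allogeneic recipients, with 2 others, Ubash3a and Sh2d1a. Without the library that stood apart 2 of the 10 were called, among them Sh2d2a (1.24). Ubash3a (0.60, adjusted p 0.0594) and Sh2d1a (0.84, adjusted p 0.112) were not called there. Ptpn6, which encodes the phosphatase SHP-1, was called lower in CD8 cells (-1.09, adjusted p 3.92e-05), with 1 other.

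Across the 31 libraries Pdcd1, Ctla4, Lag3, Havcr2 and Tigit ran together, with Pearson correlations of log2 levels between 0.79 (Havcr2 with Ctla4) and 0.95 (Pdcd1 with Lag3). These correlations mix 10 groups that share donors and hosts, and are given as a description. After the group means were removed, the same 10 pairs ranged from -0.07 (Lag3 with Ctla4, and Havcr2 with Lag3) to 0.72 (Pdcd1 with Ctla4). Both sets of correlations include the CD4 syngeneic library that stood apart, and none was computed without it. Cd160 and Btla stood outside this set, with correlations to its 5 genes of -0.18 to 0.22 and -0.26 to -0.09. Among 15256 other genes with a mean of at least 10, the 3 closest in pattern were Dusp14 (0.96), Gm6637 and Rora for Pdcd1, and Sdcbp2 (0.99), ENSMUSG00000103326 and Slamf1 for Ctla4. They were Grb7 (0.94), Dusp14 and Prdm1 for Lag3, Tg (0.98), Zdhhc2 and Lsr for Havcr2, and Gm6637 (0.96), Bcl2a1b and Tchp for Tigit. Cd160 was closest to Klrd1 (0.95), Chpt1 and Klrc2, Btla to Slc9a9 (0.84), Vwa5a and Parp3, and Cd200 to Angptl2 (0.92), Tox2 and Kcnmb1.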

How the data were processed

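RNA of sorted T cells from spleen and lymph nodes was made into full-length cDNA with the SMARTer v4 kit and into libraries with Nextera XT, per the labels' protocols. Kallisto, FastQC 0.11.7, DESeq2 and the build GRCm38/mm10 are named in the submitters' processing notes. The values are normalised counts, a signal that the authors deposited in 1 table of 31 libraries and 16741 genes, in which the mean over libraries equals the deposited base mean to within 5.86e-07 of its value. Whole reads could not be recovered, so the depth is unknown and no count test was run. The assembled T-cell receptor tables were not used here.

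Values were tested as log2(value + 1), with a pseudocount of 1 and a minimum mean of 1, by limma 3.58.1 in R 4.3.3, with a group-means model over all 31 libraries, a mean-variance trend, robust moderation and Benjamini-Hochberg adjustment over all genes of a comparison. Differences are on the log2(value + 1) scale, which understates changes of low genes. A gene was called at an adjusted p under 0.05. There were 14 comparisons, and 2 tests of a difference between label prefixes were added after the data were seen. The code was tested on simulated data. Sequences and positions are from RefSeq. The members and gene lists were chosen with earlier results of these data known. All 8 genes are covered in each comparison, by value or range, and from each list, up to 3 called genes with the lowest adjusted p in a comparison, and for each member the 3 genes closest in pattern.

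Libraries with the same prefix, arm and number were taken as 1 recipient. Over the 11 recipients after transplantation, their CD4 and CD8 deviations from the group means correlated by -0.11 to 0.43, with 7 of 11 over 0.1, all 4 allogeneic ones among them. Since not every pair exceeded 0.1, pairing was kept to alternatives. Alternatives changed the pseudocount, filter, scaling, block, weights, groups fitted and libraries.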

Additional observations from a re-analysis of the deposited data

Results flagged for a closer look

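Each of the 8 genes was looked at in each group of 4 libraries, which made 32 sets of values. In 4 of the 32 sets, 1 library stood far from the other 3, where chance flags about 1 in 20. The sets share libraries and the flags repeat recipient labels, so the sets are not independent. Ctla4 was low in replicate JL019-2 of allogeneic recipients in both cell types, at 12479 in CD4 cells and 11921 in CD8 cells. Replicate JL027-1 had the highest Cd160, at 12127, and the highest Btla, at 1907, of the 4 CD8 libraries from allogeneic recipients. Both values come from 1 library.

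The allogeneic against syngeneic difference was larger in CD8 than in CD4 cells by a test of the interaction for Pdcd1 (4.32), Havcr2 (4.12), Ctla4 (2.83) and Lag3 (2.64), and smaller for Cd160 (-2.90). All 5 calls held in each of the 14 fits that left out 1 library of these groups.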

How the results depend on the processing

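Of 2320 values of the 8 genes under alternatives, 2187 kept their side of the threshold, 94 were no longer called, 39 became called and 0 called values reversed. The sign differed in 86 values, 0 of them called in either fit. Of 3860 values of the other genes chosen from the lists, 357 were no longer called and 0 reversed. The cause of each change below was not tested. In CD4 cells of Treg-treated against allogeneic recipients the count of 1 gene went to 0 with scaling to an equal mean, quantile normalisation, either prefix alone or a minimum log2 difference of 1, to 2 with array weights, and ranged from 0 to 2 without 1 library. Against day 0, CD4 syngeneic cells went from 2 genes to 1 with only the groups compared or either prefix alone, to 5 with array weights, to 3 with quantile normalisation, and from 1 to 3 without 1 library, and CD8 syngeneic cells from 4 to 2 in either prefix. Within 1 prefix each day 0 group, and in JL027 each syngeneic and recovered Treg group, is 1 library assumed to vary like the others, so a lost call there is no sign of a smaller difference. Recovered Treg against day 0 went from 6 to 3 in JL019 and 1 in JL027, and Treg against CD4 cells at day 0 from 5 to 2 in JL019. CD8 against CD4 cells in allogeneic recipients went from 6 to 3 with an equal mean, 0 in JL019 and 2 in JL027, and from 3 to 5 without 1 library. The interaction went from 5 to 2 in JL019 and 8 with array weights. In CD8 cells against syngeneic recipients, array weights gave 8 genes for 6 in allogeneic and 7 for 6 in Treg-treated recipients, the added ones lower (Cd160 and Btla, and Btla). They also gave 7 for 6 in recovered Treg against day 0, 4 for 3 in recovered Treg against CD4 cells, and, like a fit to only the groups compared, 7 for 5 in Treg against CD4 cells at day 0. The prefix as a replicate block added calls for Btla only (-1.06 and -1.09 in CD8 cells), the recipient block only Cd200 (1.34), and the pairing changed no other call.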
